A study of Oncorhynchus mykiss with 6 samples.

Results

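The miRNA families miR-375, miR-216 and miR-217 were followed in liver small RNA counts of rainbow trout. All names that equal one of these families once the final x, y or z is removed were taken, which gave 5 names of the 2730 listed: miR-375-y, miR-375-x, miR-216-x, miR-216-y and miR-217-x. The suffixes are not defined in the files. The study compared heat-stressed fish, whose water was warmed by 1 °C every 24 h from 18 °C to 24 °C (HS, called heat here, 3 libraries), with fish kept at 18 °C (CG, called control, 3 libraries). Both groups were female trout aged 150 days with a mean weight of 200 g, held in tanks of 500 L after 7 days of acclimation. The labels speak of 12 fish from the 2 temperatures and do not say which fish, or how many, went into each library, so the p-values measure the spread between these libraries, which may be technical.

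miR-375 is known as an miRNA of the pancreatic islets. It restrains insulin release in mouse beta cells and is needed for normal islet development in zebrafish, and it is also made in the pituitary. miR-216 and miR-217 are known as miRNAs of the exocrine, acinar pancreas, and in vertebrate genomes their genes usually lie side by side. In many bony fishes the exocrine pancreas is not a compact organ but is scattered through the fat around the gut, and in some species it follows vessels into the liver.

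The sequences are shown first because the counts belong to these exact strings. They are given 5′ to 3′ as DNA letters, as the authors deposited them, with bases 2 to 8 (the seed, which pairs with target mRNAs) in capitals.
miR-375-y: tTTGTTCGttcggctcgcgtta
miR-375-x: aCGTTGAGccatacgcacaata
miR-216-x: tAATCTCAgctggcaactgtga
miR-216-y: aCATTGACctggagaggttctg
miR-217-x: tACTGCATcaggaactgattgg
All 5 are 22 bases long. Equal length does not make their levels comparable, since small RNA libraries capture some sequences better than others. No 2 of them share a seed, and miR-216-x and miR-217-x are 9 edits apart. Paired in silico, miR-375-x and miR-375-y formed 16 base pairs over 22 bases (-18.8 kcal/mol) and miR-216-x and miR-216-y formed 15 (-11.8 kcal/mol), while the mismatched pair miR-216-x and miR-375-x formed 6 (-7.50 kcal/mol). No hairpin sequences were at hand. The x and y names of a family are called its strands here from the shared name and this pairing alone. No other listed name lay within 2 edits of a member. The only other name with a member's seed was miR-3477-x, 3 edits from miR-216-x, with 2 reads in control replicate 1 and 0 reads in the other 5 libraries.
miR-3477-x: tAATCTCAtgtggtaactgtga

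Total counts ran from 9267658 to 12778484 per library. The hepatocyte miRNA miR-122-x ranked highest in all 6 libraries, with 23.2% to 25.7% of counts in heat and 18.5% to 28.6% in control. Heat replicate 1 and control replicate 2 stood apart from the other libraries. Their scaling factors (TMM, which corrects library size for composition) were 1.24 and 1.25, against 0.87 to 0.916 elsewhere. Levels are given as CPM, the reads of a name per 1000000 reads, on TMM-scaled library sizes unless called plain. Of 249 tested known names, 122 (49%) had these libraries as their 2 highest in plain CPM and 47 (18.9%) in normalized CPM. Fold changes and ratios of the tested names are therefore given with and without them where they have a value, while spreads, profiles and summed marker levels use all 6 libraries.

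Enough reads for a test were found for 4 of the 5 names, while miR-216-y, with 2 reads in all, was left out. By mean level, miR-375-y came before miR-216-x, then miR-217-x, miR-375-x and miR-216-y. miR-375-y was above miR-216-x in 3 of 3 heat libraries and in 2 of 3 control libraries, and the spread of miR-216-x covered the gap in control. miR-217-x lay below miR-216-x in 6 of 6 libraries, and miR-375-x lay below miR-217-x in 6 of 6. In heat replicate 3 those last names had 12 and 9 reads, and their counting intervals overlapped (0.605 to 2.05 and 0.402 to 1.67 plain CPM, exact binomial 95%, counting error only).

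miR-375-y, the abundant strand of the islet miRNA, was 1.53-fold higher in heat by the fitted value, and this did not pass the test. It had 2304, 1146 and 1808 reads in heat replicates 1 to 3, against 875, 1565 and 1095 reads in control replicates 1 to 3. Normalized, these were 146, 142 and 194 CPM in heat and 98.6, 105 and 111 CPM in control. Every heat library lay above every control library on this scale. In plain CPM the groups overlapped, since heat replicate 2 at 124 lay below control replicate 2 at 132, and 28 of 651 names (4.30%) had heat wholly above control. The means were 161 ± 29.2 CPM in heat and 105 ± 6.01 CPM in control (SD, n = 3 each). The log2 fold change of heat over control was 0.62 ± 0.27 (SE, 95% interval -0.0028 to 1.24), with an adjusted p of 0.948 in edgeR's quasi-likelihood test (Benjamini-Hochberg over 651 names). It was 0.65 without heat replicate 1 and control replicate 2. miR-375-y ranked 79 to 93 among the 522 known names in heat and 96 to 104 in control, and miR-122-x had 1285 to 2079 reads per read of miR-375-y in heat and 1405 to 2998 in control.

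miR-375-x, the rare strand, made up 0.935% of all miR-375 reads. It had 25, 9 and 9 reads in heat, against 3, 37 and 0 reads in control replicates 1 to 3. Its share of miR-375 reads was 1.07% (exact binomial 95% interval 0.696% to 1.58%), 0.779% (0.357% to 1.47%) and 0.495% (0.227% to 0.938%) in heat replicates 1 to 3. In control replicates 1 and 2 it was 0.342% (0.0705% to 0.995%) and 2.31% (1.63% to 3.17%), and 0 of 1095 reads in control replicate 3 allow a share of up to 0.274% (3 counts). No name had a count of 1 in any library, so a listed 0 may stand for a single read, which this limit does not cover. The interval of control replicate 2 lay above those of all 5 other libraries, so the rare strand was highest there relative to the abundant strand as well as in level. After centring, miR-375-x differed from miR-375-y by 0.97 log2 units on average over the libraries, against a median of 1.11 between miR-375-x and 245 other known names, of which 60 lay closer. Seen from miR-375-y, the median was 0.49, and 225 of the 245 names lay closer than miR-375-x did. With 0 to 37 reads per library, the profile of miR-375-x carries a large counting error. The log2 fold change of miR-375-x was 0.31 ± 1.08 (SE, 95% interval -2.17 to 2.80; edgeR adjusted p = 0.995), and it was -0.076 without control replicate 1, -0.19 without control replicate 3, 0.50 without heat replicate 3 and 1.30 with a replicate block. No value was obtained without control replicate 2 or without heat replicate 1, where the name failed the count filter.

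**Figure D1:**
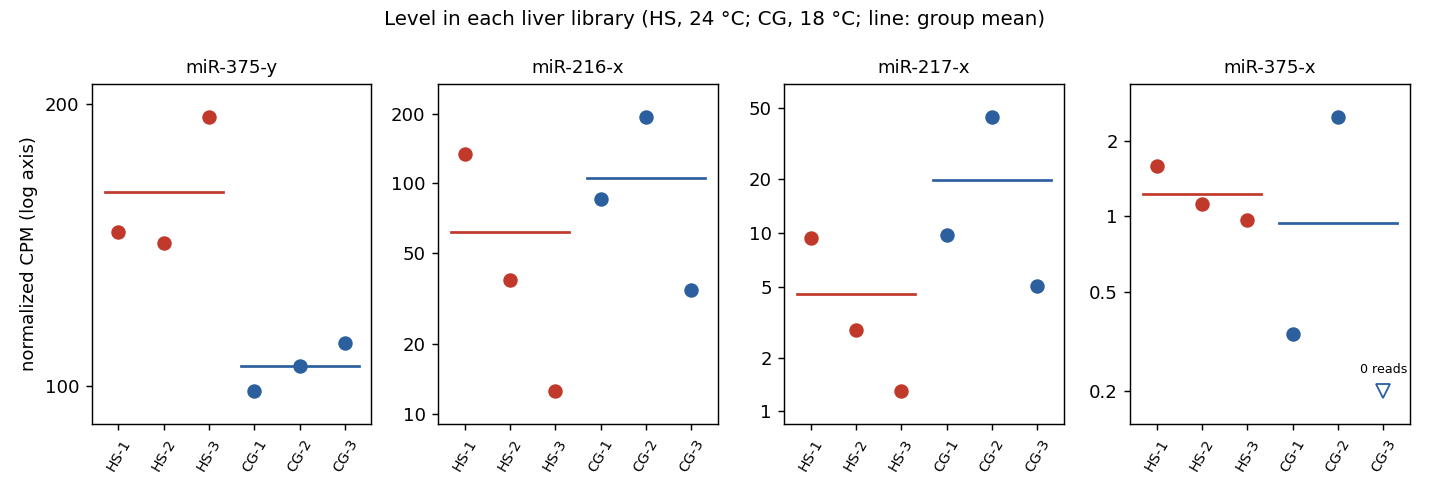
Normalized CPM (log axis, with its own range in each panel) of the 4 tested names in each heat (HS) and control (CG) library, with points for libraries and lines for group means. miR-375-y lies between 142 and 194 CPM in heat and between 98.6 and 111 CPM in control, while the other 3 names overlap between the groups; the open triangle is control replicate 3, with 0 reads of miR-375-x.

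miR-216-x, the abundant strand of the acinar miR-216, varied more between libraries of a temperature than between temperatures. It had 2126, 306 and 116 reads in heat replicates 1 to 3, against 759, 2880 and 341 reads in control replicates 1 to 3. Normalized, these were 134, 38.0 and 12.5 CPM in heat and 85.6, 194 and 34.5 CPM in control. Heat replicate 1 and control replicate 2 were the highest, and the groups overlapped. Levels differed 10.8-fold between the highest and lowest heat library and 5.62-fold between the highest and lowest control library. The means were 61.6 ± 64.3 CPM in heat and 105 ± 81.2 CPM in control (SD, n = 3 each). The log2 fold change was -0.76 ± 0.88 (SE, 95% interval -2.81 to 1.29; edgeR adjusted p = 0.995). It was 0.017 without control replicate 2, -1.15 without control replicate 3, -2.02 without heat replicate 1, -0.27 without heat replicate 3 and -1.28 without heat replicate 1 and control replicate 2 together. The rare strand, miR-216-y, had 2 reads in control replicate 2, where miR-216-x was highest, and 0 reads in the other 5 libraries. In heat replicate 1, the next highest, 0 of 2126 miR-216 reads allow a share of up to 0.141% for it (3 counts), if the listed 0 is not a single read.

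miR-217-x, also of the acinar pancreas, was the least abundant of the 3 leading names and had the most negative fitted change in heat. It had 149, 23 and 12 reads in heat replicates 1 to 3, against 86, 670 and 50 reads in control replicates 1 to 3. Normalized, these were 9.41, 2.85 and 1.29 CPM in heat and 9.70, 45.0 and 5.05 CPM in control. Heat replicates 2 and 3 lay below every control library, and heat replicate 1 lay within the control range. The means were 4.52 ± 4.31 CPM in heat and 19.9 ± 21.9 CPM in control (SD, n = 3 each). The log2 fold change was -2.12 ± 0.98 (SE, 95% interval -4.40 to 0.15; edgeR adjusted p = 0.995). The value was -0.70 without control replicate 2, -3.24 without heat replicate 1 and -1.86 without both. Without a count filter the edgeR adjusted p was 0.0614, at a log2 fold change of -2.19 ± 0.61 (SE). That fit called 23 of 2730 names, against 0 of 651 in the main fit. As these are whole-liver libraries, fewer cells that make an miRNA and less of it per cell cannot be told apart.

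Of the 4 tested names, 0 were called by edgeR, beside 0 of 651 names tested (0.00%). At an unadjusted p under 0.05 the counts were 0 of 4 and 20 of 651 (3.07%), with unadjusted p of 0.0508 for miR-375-y, 0.0637 for miR-217-x, 0.415 for miR-216-x and 0.778 for miR-375-x in the same edgeR fit. DESeq2 called 2 of 2724 names (0.0734%), neither of them a member. At an unadjusted p under 0.05 it had 55 names (2.02%), among them miR-217-x alone of the members (unadjusted p = 0.00767, adjusted p = 0.999). Heat lay wholly above control for 1 of the 4, miR-375-y, and for 34 of 651 names tested (5.22%). Heat lay wholly below control for 0 of the 4 and for 20 of 651 (3.07%), so that groups did not overlap for 54 names (8.29%) in either direction. The median log2 fold change was -0.22 over the 4 names, with 2 above and 2 below 0, and -0.02 over all names tested.

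**Figure D2:**
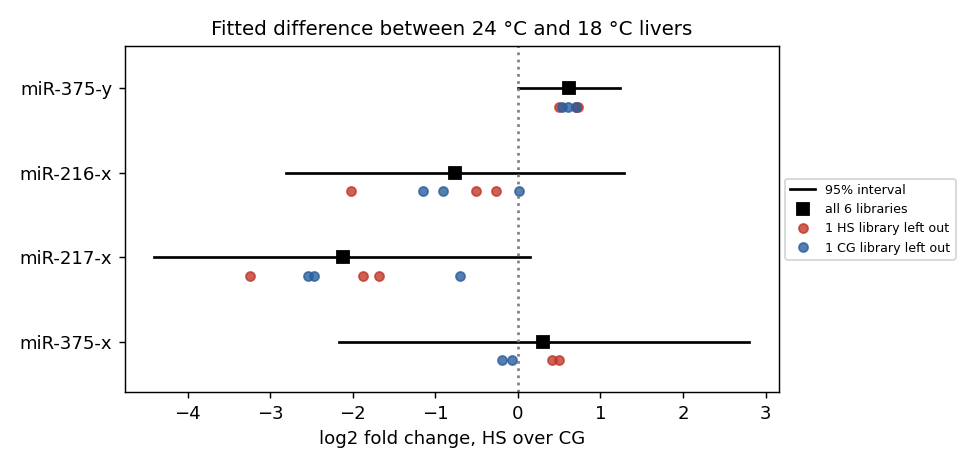
Log2 fold change of heat over control for the 4 tested names, with squares for all 6 libraries, lines for the 95% interval, and points for fits with 1 heat or 1 control library left out. miR-375-y stays between 0.50 and 0.73, while miR-217-x runs from -3.24 to -0.70 and miR-216-x from -2.02 to 0.017.

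Within a library, the ratio of 2 names does not depend on library size or scaling, so the names were also compared as ratios of reads. miR-216-x had 14.3, 13.3 and 9.67 reads per read of miR-217-x in heat replicates 1 to 3, against 8.83, 4.30 and 6.82 in control replicates 1 to 3. Every heat library was above every control library. The counting intervals of heat replicate 3 (5.33 to 19.2) and control replicate 1 (7.05 to 11.2) overlapped, because heat replicate 3 had 12 reads of miR-217-x. The mean log2 ratio was 3.61 ± 0.30 in heat and 2.67 ± 0.53 in control (SD, n = 3 each), a 1.92-fold difference (0.94 in log2). The two-sided exact permutation test gave p = 0.1, the smallest that 3 against 3 libraries allow, or 0.3 after Benjamini-Hochberg adjustment over 3 ratios. Groups also did not overlap for 5.46% of the 29161 ratios between known names with reads in all libraries. Leaving out control replicate 2 gave a difference of 0.66, and leaving out heat replicate 1 as well gave 0.55.

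Both acinar names were lower relative to miR-375-y in heat by mean, and over all 6 libraries neither ratio separated the groups. There were 0.0647, 0.0201 and 0.00664 reads of miR-217-x per read of miR-375-y in heat replicates 1 to 3, against 0.0983, 0.428 and 0.0457 in control replicates 1 to 3. Heat replicate 1 lay above control replicate 3. The difference of mean log2 ratios was -2.60 (exact permutation p = 0.2, adjusted 0.3), and -1.71 without control replicate 2. The groups no longer overlapped without heat replicate 1 (-3.43), without control replicate 3 (-3.32) or without heat replicate 1 and control replicate 2 together (-2.54). Since only heat replicate 1 and control replicate 3 overlapped, leaving either out had to separate the groups. For miR-216-x the ratios to miR-375-y were 0.923, 0.267 and 0.0642 in heat, against 0.867, 1.84 and 0.311 in control. Control replicate 2 was the only library in which miR-216-x outnumbered miR-375-y. The difference was -1.66 (exact permutation p = 0.3, adjusted 0.3), and it was -0.67 without heat replicate 3, -1.05 without control replicate 2 and -2.60 without heat replicate 1. Here the groups no longer overlapped without heat replicate 1, or without it and control replicate 2 together (-1.99). Heat replicate 1 was the only heat library within the control range, so leaving it out had to separate them. For both ratios, the share of all name pairs that separate in fewer libraries was not computed.

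**Figure D3:**
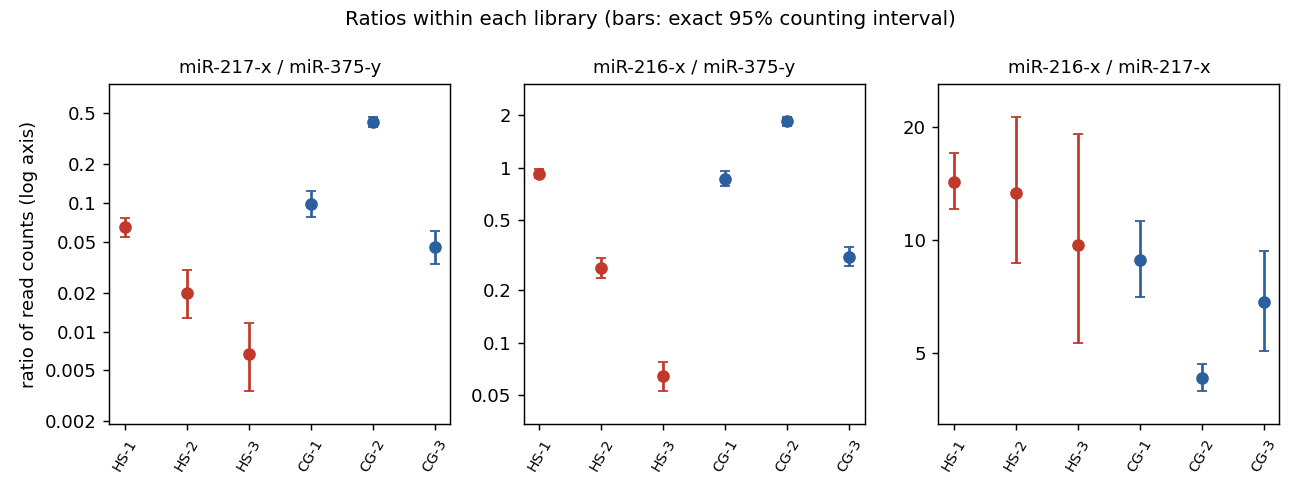
Ratio of read counts (log axis, with its own range in each panel) in each heat (HS) and control (CG) library for 3 pairs of names, with bars for the exact 95% counting interval. Only the ratio of miR-216-x to miR-217-x separates the groups, at 9.67 to 14.3 in heat and 4.30 to 8.83 in control.

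miR-375-y spread less than the other 3 tested names between libraries of the same temperature. The within-group SD of log2 CPM was 1.49 for miR-216-x, 1.49 for miR-217-x, 1.40 for miR-375-x and 0.19 for miR-375-y, against a median of 0.51 over the 249 known names tested. Among 41 known names within 1 log2 unit of the mean level of miR-216-x, 0 spread more, and their median was 0.50. Among 49 names near the level of miR-217-x, 5 spread more (median 0.59). Among 39 names near the level of miR-375-y, 35 spread more (median 0.44), so miR-375-y was among the steadier names at its level. Among 25 names near the level of miR-375-x, 6 spread more (median 0.83). These values describe the libraries and carry no test.

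**Figure D4:**
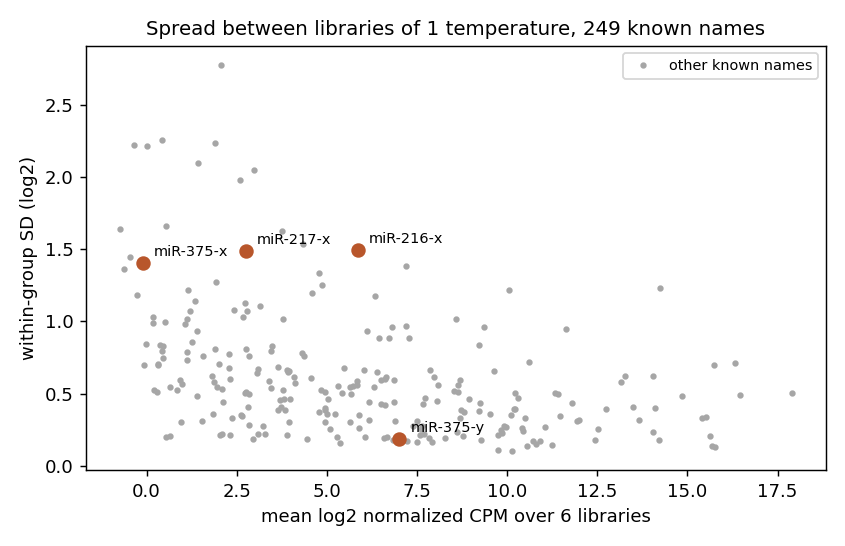
Within-group SD of log2 CPM against mean log2 normalized CPM for 249 known names (grey) and the 4 tested members (brown), both axes in log2 units. miR-216-x and miR-217-x sit near 1.49, above most names of their level, and miR-375-y at 0.19 lies near the bottom.

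Profiles over the 6 libraries were compared by the mean absolute difference of log2 CPM, each name centred on its own mean. miR-217-x was closer to miR-216-x (0.45) than any of the 245 other known names (median 1.13). Seen from miR-217-x, 1 name was closer than miR-216-x, miR-8159-x at 0.38, with 505, 159 and 74 reads in heat against 246, 2303 and 192 reads in control. It shares no seed with a member and is at least 11 edits from each.
miR-8159-x: tCAGTAACtggaatctgtccct
The next profiles to miR-217-x were those of miR-462-y (0.49), miR-138-x (0.67), miR-92-x (0.68) and miR-725-y (0.73). Those nearest to miR-216-x were miR-4286-z (0.49), miR-92-x (0.52), miR-8159-x (0.52), miR-21-y (0.52) and miR-122-y (0.54), the last from the same family as the hepatocyte miR-122-x. These 5 all had their highest level in control replicate 2, as did 86 of the 249 tested known names (34.5%). They were picked for nearness to miR-216-x, itself highest there, so this is not a separate observation. miR-375-y lay farther off: it was 1.35 from miR-216-x and 1.42 from miR-217-x, with 191 of 245 names closer to each of them. This distance depends on how much names vary as well as on shape, and miR-375-y varied little. Its nearest profiles were the smooth muscle miR-145-x (0.18), the erythroid miR-144-y (0.21), miR-99-x (0.22), miR-338-y (0.22) and miR-8163-y (0.23). Those nearest to miR-375-x were miR-20-x (0.58), miR-2188-x (0.61), miR-203-y (0.65), miR-206-y (0.65) and miR-10544-x (0.67).

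**Figure D5:**
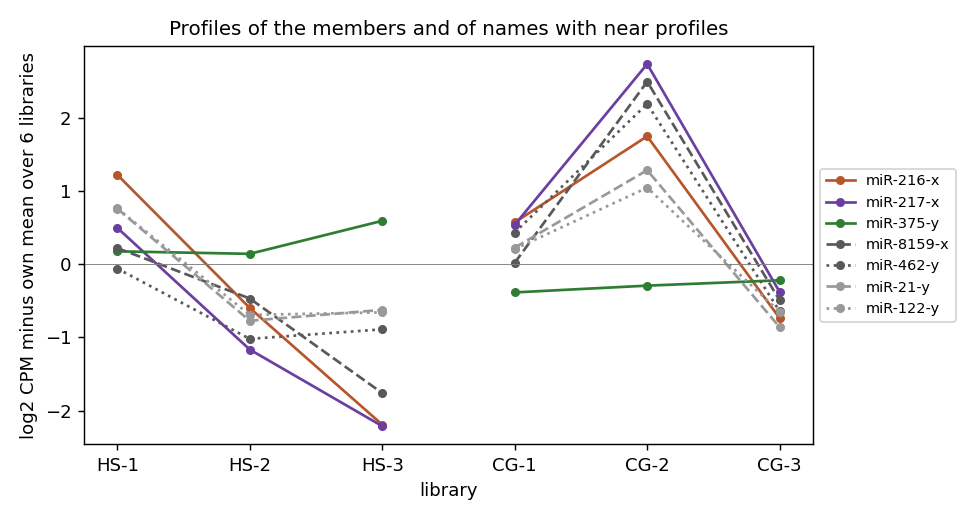
Log2 CPM minus each name's own mean over the 6 libraries, for 3 members and 4 names with near profiles; lines only help to follow a name within a group, and replicates have no order. miR-216-x and miR-217-x lie at -2.19 and -2.21 in heat replicate 3 and at 1.74 and 2.73 in control replicate 2, while miR-375-y stays between -0.39 and 0.59.

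Other tissue markers were read beside these names, and 0 of their tested names were called by edgeR. Fitted values below 0 were the more common over all 249 known names tested, with 161 below and 88 above 0 and a median log2 fold change of -0.12. Other islet and neuroendocrine miRNAs (11 of 16 names tested, 3 above and 8 below 0, median -0.13) summed to 184 to 200 CPM in heat and 179 to 319 CPM in control, highest in control replicate 2. miR-153-y, a neuronal miRNA, had 10.6 ± 4.18 CPM in heat and 19.2 ± 4.40 CPM in control (SD, n = 3 each), a log2 fold change of -0.85. miR-7-x, a neuronal and islet miRNA, was at -0.53 and miR-96-x at -0.56. Without control replicate 2, miR-153-y was at -1.04, miR-7-x at -0.028 and miR-96-x at 0.28. Without heat replicate 1 as well, miR-153-y was at -1.30, miR-7-x at 0.077 and miR-96-x at 0.33.

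Within each group, summed epithelial and summed leukocyte miRNAs were highest in heat replicate 1 and in control replicate 2, the libraries with the most miR-216-x. Of 249 tested known names, 47 (18.9%) had these libraries as their 2 highest in normalized CPM. Epithelial miRNAs (7 of 13 tested, 2 above and 5 below 0, median -0.20) summed to 4410 CPM in heat replicate 1 and 6505 CPM in control replicate 2, against 2833 to 3270 CPM in the other heat libraries and 2519 to 4051 CPM in the other control libraries. Leukocyte miRNAs (8 of 11 tested, all 8 below 0, median -0.45) summed to 18616 CPM in heat replicate 1 and 32610 CPM in control replicate 2, against 16776 to 17805 CPM in the other heat libraries and 16865 to 18072 CPM in the other control libraries. The epithelial log2 fold changes of -1.67 for miR-200-z, -0.99 for miR-429-y and 0.54 for miR-203-y became 0.024, 0.55 and 1.30 without control replicate 2. They were -0.27, 0.23 and 1.02 without heat replicate 1 as well. The leukocyte names with the lowest p were miR-146-y (-0.50), miR-223-x (-0.58) and miR-155-x (-0.63). Without control replicate 2 these were -0.54, -0.71 and -0.17, and without heat replicate 1 as well -0.60, -0.74 and -0.40. Like the sum, miR-155-x was highest in heat replicate 1 and control replicate 2. By contrast, miR-146-y and miR-223-x were highest in heat replicate 3 and control replicate 1. In control replicate 2, miR-146-y, miR-223-x and miR-155-x had only 46.6, 1.41 and 34.7 of the 32610 CPM. The leukocyte sum was thus set by other names of the list.

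In normalized CPM, summed hepatocyte, intestine and muscle miRNAs were lowest, within each group, in heat replicate 1 and control replicate 2. The scaling factors of 1.24 and 1.25 themselves lower levels in these libraries, and sums in plain CPM were not computed. Unscaled, miR-122-x made up 23.2% of counts in heat replicate 1, against 25.7% and 24.9% in heat replicates 2 and 3. In control replicate 2 it was 18.5%, against 27.1% and 28.6% in control replicates 1 and 3. Hepatocyte miRNAs (11 of 11 tested, 1 above and 10 below 0, median -0.11) summed to 254911 CPM in heat replicate 1 and 238234 CPM in control replicate 2, against 367463 to 393738 CPM in the other heat libraries and 379557 to 396707 CPM in the other control libraries. Their names with the lowest p were miR-194-y (-0.62), miR-122-y (-0.39) and miR-192-x (0.19). Without control replicate 2 these were -0.11, 0.12 and 0.10, and without heat replicate 1 as well -0.53, -0.55 and 0.29. Unlike the sum, miR-194-y and miR-122-y were highest within each group in heat replicate 1 and control replicate 2. In normalized CPM, miR-192-x was lowest there. Intestine miRNAs (9 of 12 tested, 3 above and 6 below 0, median -0.12) summed to 43934 to 71384 CPM in heat and 51186 to 58067 CPM in control. This list shares miR-192 and miR-194 with the hepatocyte list, so its sum is not a separate observation. miR-192-x alone made up 34220 of 43934 CPM in heat replicate 1 and 38735 of 51186 CPM in control replicate 2. miR-215-x was at 0.29, or 0.15 without control replicate 2 and 0.24 without heat replicate 1 as well. Muscle miRNAs (6 of 8 tested, all 6 below 0, median -0.12) summed to 60.7 to 71.1 CPM in heat and 57.3 to 81.1 CPM in control, and miR-208 had no reads. miR-133-z was at -0.27, miR-1-z at -0.27 and miR-206-y at -0.17, and without control replicate 2 these were -0.28, -0.065 and 2.01. Without heat replicate 1 as well, miR-133-z was at -0.19 and miR-1-z at 0.13, and miR-206-y had no value. Within control, miR-133-z and miR-1-z were lowest in replicate 1, and miR-206-y was highest in replicate 2. Erythrocyte miRNAs (5 of 5 tested, 2 above and 3 below 0, median -0.08) summed to 4230 to 5848 CPM in heat. In control they summed to 3896 to 6708 CPM. Within their groups, in normalized CPM, they were lowest in heat replicate 1 and highest in control replicate 2. Their values were 0.47 for miR-144-y, -2.01 for miR-486-x and -0.16 for miR-451-x. Without control replicate 2 these were 0.47, -1.08 and 0.14, and without heat replicate 1 as well 0.43, -1.59 and 0.30. Over all tested names of the lists, heat lay wholly above control for 1 of 5 erythrocyte names, miR-144-y. It lay wholly below control for 1 of 11 other islet and neuroendocrine names, miR-153-y, and for 2 of 8 leukocyte names, miR-146-y and miR-223-x. The other lists had no such name in either direction, and the shares over all names tested were 5.22% and 3.07%. The part of these cell types in the levels of miR-216-x and miR-217-x was not tested.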

How the data were processed

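Per the file headers, each deposited file gives, for 1 library, a count per miRNA name, the sequence, a TPM value and a total over the 6 libraries. The counts are whole numbers and were used as deposited by the authors. The deposited TPM column is the authors' own scaling, sums to 1005406 to 1008153, and served only as an alternative for ratios. Alignment, miRNA database and genome build are not stated in any label or header used here. A protocol text that mentions retina does not describe a small RNA library. Small RNA libraries capture some sequences better than others, which affects levels between names more than a name's change between libraries.

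The test was edgeR's robust quasi-likelihood test (edgeR 4.0.16 under R 4.3.3) after filterByExpr with a minimum count of 10 and TMM scaling, adjusted by Benjamini-Hochberg over all 651 names tested, at a threshold of 0.05. CPM values use TMM-scaled library sizes, and profiles and SDs use log2 CPM with a prior count of 2. Ratios were compared by a two-sided exact permutation test (scipy 1.17.1). Strands were paired with RNAduplex (ViennaRNA 2.7.2). Intervals and the limits for a count of 0 (3 counts) cover counting error only. DESeq2 1.42.0 was an alternative. On simulated counts for 651 names, 200 of them changed, edgeR recovered 13.6% of 2-fold, 60.0% of 4-fold and 89.6% of 8-fold changes, and 3.03% of its calls were false. These rates pool all names and hold for that share of changed names, so they do not apply to a single member.

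Members, lists and tests were chosen with earlier results of these data known. Named were all members, the 5 nearest profiles of each, names sharing a seed or lying within 2 edits, and up to 3 names of lowest p in each of 7 marker lists: hepatocyte, other islet and neuroendocrine, epithelial, intestine, muscle, erythrocyte and leukocyte. Figures were drawn with matplotlib 3.10.9.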

Additional observations from a re-analysis of the deposited data

How the results depend on the processing

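edgeR again called 0 names with unscaled library totals, with size factors taken from DESeq2, at a minimum count of 20, with the fit not robust, on known names or distinct sequences, under the replicate block, after any 1 library was removed, and after heat replicate 1 and control replicate 2 were both removed. DESeq2 called 2 names and edgeR without a count filter called 23, and the cause was not tested. No tested member passed in any setting.

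Over libraries left out in turn, the log2 fold change ran from 0.50 to 0.73 for miR-375-y, from -3.24 to -0.70 for miR-217-x, from -2.02 to 0.017 for miR-216-x (reversed only without control replicate 2) and, in 4 fits, from -0.19 to 0.50 for miR-375-x (reversed at -0.076 and -0.19). The difference in log2 ratio ran from -3.43 to -1.71 for miR-217-x to miR-375-y, from -2.60 to -0.67 for miR-216-x to miR-375-y and from 0.66 to 1.18 for miR-216-x to miR-217-x. It kept its sign in each of 10 settings per ratio. Among these, the authors' TPM and the replicate block could not change it.

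Libraries with the same replicate number were not consistently alike. The labels do not say whether equal numbers mark a shared fish, tank or day, and so few libraries cannot decide it. Their deviations from the group means correlated at -0.00986, -0.284 and 0.415 over 131 known names, and 1 of 6 libraries correlated best with its own number. With the replicate block, the log2 fold change was 0.60 for miR-375-y, -1.09 for miR-216-x, -1.97 for miR-217-x and 1.30 for miR-375-x. The block gave 0 calls, with 33 names at an unadjusted p under 0.05. The ratio differences cannot change under it and stayed at -2.60, -1.66 and 0.94 (exact sign-flip p = 0.25, 0.5 and 0.25). The smallest p that this sign-flip test allows here is 0.25.

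With 3 libraries a group and a median SE of 0.42 for known names, changes near 2-fold were mostly not detectable. The SEs of miR-216-x, miR-217-x and miR-375-x were larger, at 0.88, 0.98 and 1.08, so larger changes in these names could also be missed. Leaving control replicate 2 out of the marker names, alone or with heat replicate 1, was chosen after the data were seen, as were the alternatives for miR-375-x.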
